A study of Homo sapiens with 21 samples.

Results

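The AP-1 FOS and JUN family was read as the 7 genes FOS, FOSB, FOSL1, FOSL2, JUN, JUNB and JUND, taken by gene symbol out of 58735 genes in the deposited table. They were followed across 21 RNA-seq libraries of MDA-MB-453, a human breast cancer cell line (genotype WT), with 3 libraries in each of 7 groups. The control received no treatment. The calcium group received 10 mM calcium, the cadmium group 10 μM cadmium, the GSK4716 group 5 μM GSK4716 (an ESRRB agonist in ethanol) and the DES group 10 μM diethylstilbestrol (an ESRRB antagonist in ethanol), each for 24 h. In the DES_calcium and DES_cadmium groups, 10 μM DES was added 3 h before the metal, at the same dose, for 24 h. ESRRB is estrogen-related receptor beta, an orphan nuclear receptor, and the study asked whether the metals act through it. Per the sample descriptions, calcium and GSK4716 were given in medium without serum and cadmium with some charcoal-stripped serum left in the medium. Only a single control group is described, without treatment. Medium and treatment thus cannot be told apart, nor can GSK4716 or DES and the ethanol they were given in. The libraries are from 1 cell line, and nothing in the descriptions says that replicates were separate cultures, so the p-values measure only the spread between these libraries.

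AP-1 is a dimeric transcription factor of the basic leucine zipper class. JUN proteins pair with each other or with FOS proteins, while FOS proteins need a partner, and the dimers bind the AP-1 site or the closely related cyclic AMP response element (CRE). FOS, FOSB, JUN and JUNB are classic immediate early genes, switched on within minutes by growth factors, stress and a rise of calcium in the cell through serum response factor (SRF), CREB and MAP kinases. JUND is made more steadily. FOSL1 and FOSL2, also called FRA-1 and FRA-2, lack the strong activation domain of FOS.

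The upstream sequences of the members are shown because they hold the elements through which these genes are known to be switched on. Of the 7 members, 6 matched the RefSeq promoter table (GRCh38.p14), and FOSL1 was not matched. Every promoter in that table, 27305 in all, was equal to the GRCh38 genome, which was used to read 500 bases upstream of each start. Positions are counted from the RefSeq start, with -1 the first base upstream, and capitals mark the motif matches. The stretches run 5′ to 3′ on the gene's strand and lie outside the gene bodies of both annotations, except that of JUN.
FOS, chr14:75278498-75278547, plus strand: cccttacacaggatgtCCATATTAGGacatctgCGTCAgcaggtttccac
FOS, chr14:75278724-75278773, plus strand: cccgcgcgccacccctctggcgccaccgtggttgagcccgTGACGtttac
FOSB, chr19:45467706-45467755, plus strand: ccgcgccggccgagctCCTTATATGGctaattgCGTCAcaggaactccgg
FOSB, chr19:45467896-45467994, plus strand: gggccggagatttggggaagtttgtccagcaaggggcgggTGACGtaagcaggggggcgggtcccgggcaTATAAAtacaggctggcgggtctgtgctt
JUN, chr1:58784097-58784126, minus strand: aaggccttggggTGACATCAtgggctattt
JUNB, chr19:12791336-12791365, plus strand: cgcttcctgacagTGACGcgagccgcctcc
JUNB, chr19:12791386-12791485, plus strand: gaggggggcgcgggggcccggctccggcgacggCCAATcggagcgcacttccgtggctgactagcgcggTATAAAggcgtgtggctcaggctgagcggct
JUND, chr19:18281803-18281842, minus strand: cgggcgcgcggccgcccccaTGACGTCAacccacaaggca
JUND, chr19:18281623-18281722, minus strand: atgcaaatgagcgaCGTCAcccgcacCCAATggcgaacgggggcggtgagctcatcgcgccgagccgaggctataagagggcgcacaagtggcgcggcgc

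Both strands were searched for 7 motifs. The CRE core, TGACG, was found within 250 bases upstream of all 6 members, where 21.7% of all promoters hold it. The CArG box, the element SRF binds, was found within 500 bases upstream of FOS, at -314 to -305, and of FOSB, at -274 to -265. It was in 2.41% of all promoters of that length. In both genes a CRE core follows the CArG box, and a further CRE core and a TATA box (TATAAA) stand close to the start, at -64 and -33 in FOS and at -60 and -30 in FOSB. The octamer TGACNTCA, which contains the CRE core when N is G, was found in FOSB, JUN and JUND, against 11.2% of all promoters. JUN holds it as TGACATCA at -67, a form known to be bound by JUN and ATF2. The AP-1 site TGANTCA (12.1% of all promoters) and the estrogen-related receptor element TNAAGGTCA (1.86%) were not found in these windows, where 0 of 6 members held either. TATAAA within 250 bases was in FOS, FOSB and JUNB (11.1% of all promoters), and CCAAT in JUN, JUNB and JUND (33%). These matches are a description of letters and not of bound sites. The deposited gene body of JUN begins 280 bases upstream of the RefSeq start, that of FOSL2 410 bases and that of FOS 54 bases upstream. Part of their windows, with the TATAAA match of FOS, thus lies inside the deposited gene.

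**Figure D1:**
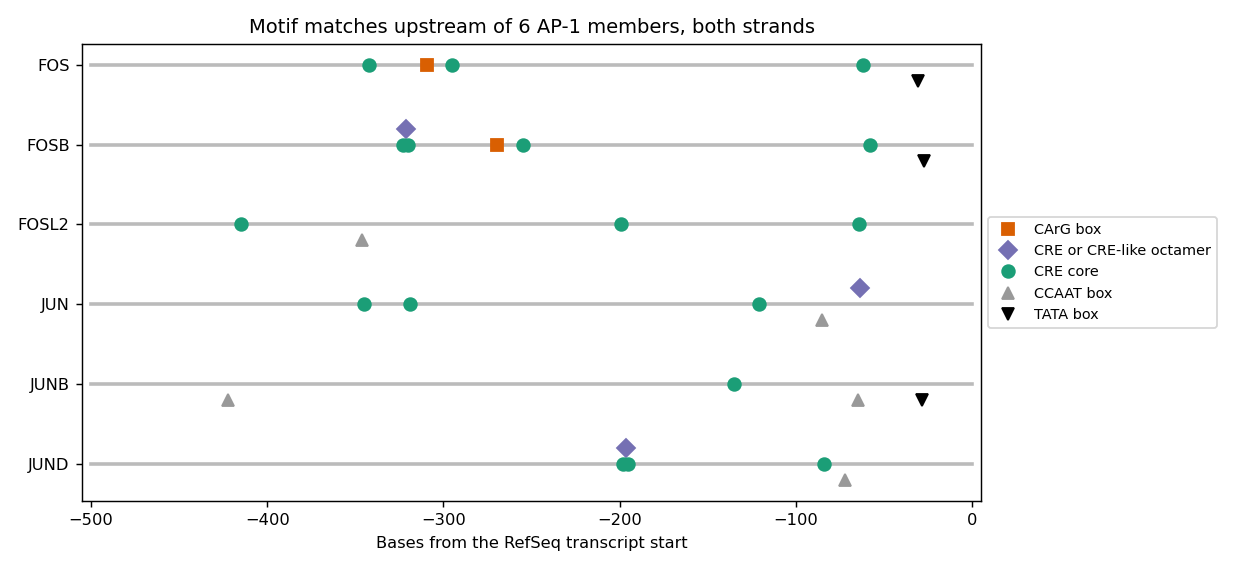
Motif matches on either strand in the 500 bases upstream of 6 members, plotted by distance in bases from the RefSeq start. FOS and FOSB share an order of elements, a CArG box, a CRE core next to it, a CRE core near the start and a TATA box, and the CArG box is absent from the windows of the other 4.

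Levels are given in FPKM, the fragments of a gene set against its length and against the size of the library. Each library held between 14435925 and 28424805 fragments on genes, with a median of 18314738. Behind the values of FOSL2, JUN, JUNB and JUND stood at least 1196 fragments in every library. FOS had 18 to 15665, FOSB 20 to 5009 and FOSL1 0 to 131, so FOSL1 was close to the limit of detection, taken as 3 fragments per library for counting error only. The luminal markers FOXA1, SPDEF, KRT8, KRT18 and ERBB2 were all present, from 53.2 FPKM for FOXA1 upward. Of 4 markers of other cell types, PTPRC (leukocytes), PECAM1 (endothelium) and KRT5 (basal cells) stayed under 0.7 FPKM, while COL1A1, a collagen gene of fibroblasts, was at 9.34 to 32.7 FPKM. The mean correlation of a library with the others of its group was 0.875 to 0.956, lowest in DES_cadmium, where FOS spread from 9.42 to 65.6 FPKM.

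In the control, AP-1 transcripts were mainly those of the JUN genes. JUND held 50.1% ± 1.35 (SD, n = 3) of the summed FPKM of the 7 members, JUNB 33.8% ± 3.75 and JUN 10.8% ± 2.74. FOSL2 held 5.02% ± 0.848, and FOS, FOSB and FOSL1 were each under 0.3% in every control library. FOS stood at 0.420 ± 0.0819 FPKM, FOSB at 0.224 ± 0.0545 and FOSL1 at 0.125 ± 0.0828 (SD, n = 3), against 116 ± 30.7 for JUND. Of the FOS genes, FOSL2 alone was above 1 FPKM in untreated cells.

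**Figure D2:**
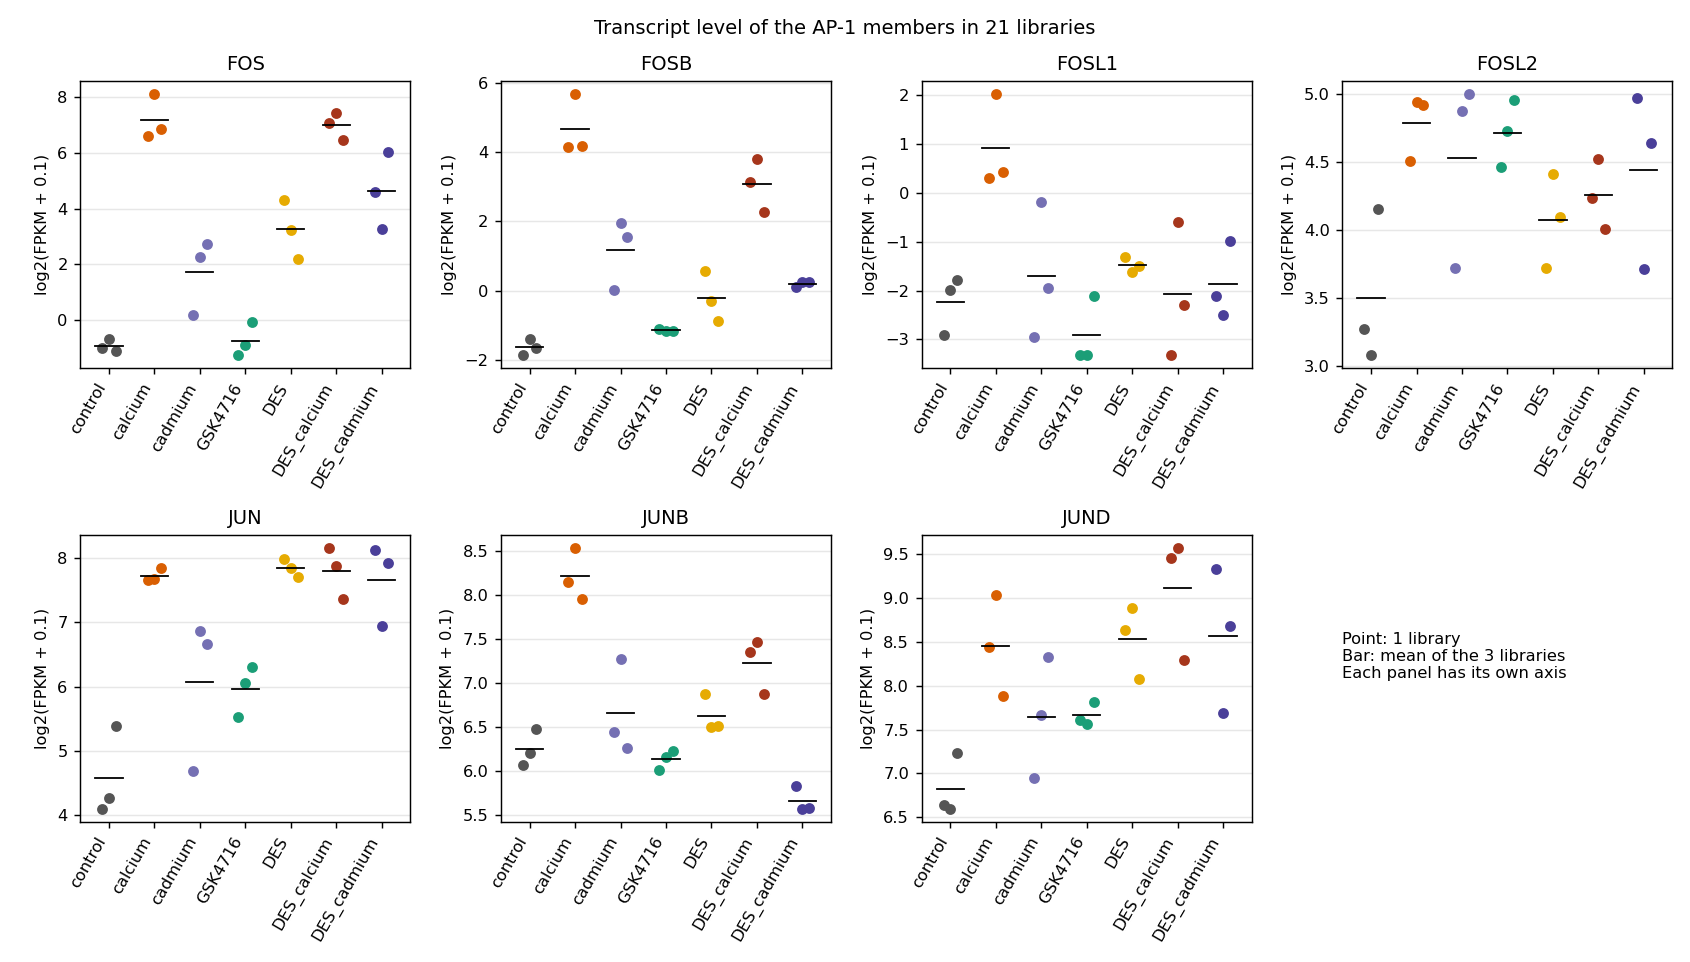
Transcript level of each member in every library, as log2(FPKM + 0.1), with a point per library and a bar at the mean of the 3 libraries of a group; each panel has its own axis. FOS runs from 0.314 to 277 FPKM over the 21 libraries, while FOSL2 stays between 8.37 and 31.9.

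FOS (ENSG00000170345, chromosome 14, 75278774 to 75282230, plus strand) encodes the founding FOS protein, a short-lived partner of JUN. It was at 0.392, 0.512 and 0.355 FPKM in the 3 control libraries and at 97.9, 277 and 116 FPKM with calcium. Every calcium library lay far above every control library. With cadmium the values were 1.04, 4.72 and 6.48 FPKM, and with GSK4716 0.314, 0.435 and 0.842 FPKM. The cadmium libraries, all above the control, differed 6.26-fold among themselves, and the GSK4716 libraries overlapped the control. DES alone gave 19.9, 9.32 and 4.47 FPKM, DES_calcium 135, 173 and 88.4 FPKM and DES_cadmium 23.8, 9.42 and 65.6 FPKM. Ordered by group mean, calcium (164) and DES_calcium (132) overlapped and stood above DES_cadmium (32.9), DES (11.2) and cadmium (4.08), in which each neighbour overlapped the next. GSK4716 (0.530) and the control (0.420) were lowest and overlapped.

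FOSB (ENSG00000125740, chromosome 19, 45467995 to 45475179, plus strand) encodes a close relative of FOS. Its FPKM was 0.173, 0.281 and 0.218 in the control and 17.9, 51.6 and 18.1 with calcium. It was 8.73, 14 and 4.71 in DES_calcium, below every library with calcium alone and above every library of the remaining groups. With cadmium FOSB was at 0.901, 3.78 and 2.82 FPKM, and with DES at 1.37, 0.712 and 0.446 FPKM. In DES_cadmium it was at 0.974, 1.08 and 1.09 FPKM, and with GSK4716 at 0.366, 0.345 and 0.340 FPKM. Each of these groups lay above the control, and cadmium, DES_cadmium and DES overlapped in that order.

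FOSL1 (ENSG00000175592, chromosome 11, 65892049 to 65900573, minus strand) encodes FRA-1, which is abundant in invasive basal breast cancer lines. It had 2, 6 and 6 fragments in the control and 48, 131 and 53 fragments with calcium, or 1.14, 3.97 and 1.25 FPKM. In the other groups it had 0 to 30 fragments per library, with 0 in a pair of GSK4716 libraries and in 1 of DES_calcium, which allows up to 3 fragments in each. Only the calcium libraries were set apart from all other groups.

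FOSL2 (ENSG00000075426, chromosome 2, 28392448 to 28417312, plus strand) encodes FRA-2. It was the steadiest member, with 9.58, 8.37 and 17.7 FPKM in the control and 22.7, 30.7 and 30.1 FPKM with calcium. GSK4716 gave 22.0, 26.4 and 31.0 FPKM, also above every control library. The group means ran from 11.9 FPKM in the control to 27.9 with calcium, and each group overlapped its neighbour in this order.

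JUN (ENSG00000177606, chromosome 1, 58780788 to 58784327, minus strand) encodes c-Jun, a substrate of the JNK kinases that can drive its own gene. Its FPKM was 17.0, 19.1 and 41.7 in the control. It was 203, 204 and 230 with calcium and 254, 230 and 209 with DES, groups that overlapped each other and were far from the control. The groups with DES and a metal overlapped them, at 286, 234 and 164 FPKM in DES_calcium and 278, 123 and 242 FPKM in DES_cadmium. Cadmium alone gave 25.7, 117 and 101 FPKM, with replicate 1 inside the control range, and GSK4716 gave 45.9, 66.4 and 78.6 FPKM, above the control. The 4 groups with calcium or DES, at means of 212 to 231 FPKM, thus stood apart from cadmium (81.3), GSK4716 (63.6) and the control (25.9).

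JUNB (ENSG00000171223, chromosome 19, 12791496 to 12793315, plus strand) encodes a JUN protein that often restrains c-Jun. It was at 67.0, 73.6 and 89.3 FPKM in the control, 285, 372 and 249 FPKM with calcium and 163, 177 and 117 FPKM in DES_calcium. Calcium alone was above every other group, and DES_calcium overlapped cadmium, which gave 87.2, 155 and 76.5 FPKM. DES alone gave 117, 90.8 and 91.0 FPKM, just above the control, and GSK4716 gave 64.5, 71.4 and 75.1 FPKM. DES_cadmium had the lowest JUNB of all groups, 56.8, 47.4 and 47.8 FPKM, below every other library.

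JUND (ENSG00000130522, chromosome 19, 18279760 to 18281622, minus strand) encodes the JUN protein most abundant in resting cells. It was at 99.4, 96.7 and 151 FPKM in the control and 347, 525 and 236 FPKM with calcium. With DES the values were 398, 475 and 269 FPKM, and in DES_calcium 705, 762 and 314 FPKM. These groups all lay above the control and overlapped each other. DES_cadmium gave 644, 206 and 412 FPKM, cadmium 123, 203 and 321 FPKM and GSK4716 195, 189 and 225 FPKM. The mean of GSK4716 (203) and that of the control (116) were the only neighbours whose libraries did not overlap.

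Comparisons between groups were tested with limma on log2(FPKM + 0.1), on which scale all fold changes below are given and which understates the change of low genes. Tested were 14686 genes whose FPKM averaged 0.5 or more over all libraries, 6 of the 7 members among them, and FOSL1 (mean 0.472) was read from the fit without that filter. Since most FOSL1 values rest on few fragments, its fold change is given only for calcium against control and calcium against cadmium. A gene was called at a two-sided Benjamini-Hochberg adjusted p under 0.05 over all genes of the fit. With 3 libraries on each side, the smallest p that an exact permutation test allows for a single gene is 0.1. The comparisons with the control share the same 3 control libraries.

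Treatment with calcium resulted in higher levels of FOS, FOSB, JUN, JUNB and JUND, 5 of the 7 members, where 4.60% of all tested genes were called higher. FOS rose by 8.15 on the log2 scale (SE 0.40, limma adjusted p = 0.00481), a 285-fold change. In bulk RNA, more cells with a transcript and more transcript per cell cannot be told apart. FOSB rose by 6.32 (SE 0.45, limma adjusted p = 0.00830) and JUN by 3.15 (SE 0.34, limma adjusted p = 0.0114). JUNB rose by 1.97 (SE 0.20, limma adjusted p = 0.00979) and JUND by 1.63 (SE 0.34, limma adjusted p = 0.0444). FOSL2, at 1.29 (SE 0.30, limma adjusted p = 0.0604), and FOSL1, at 3.15 (SE 0.60, limma adjusted p = 0.181), did not pass. They did with limma-voom on recovered fragments, which called all 7 members (FOSL2 at an adjusted p = 0.0135, FOSL1 at 0.0407) and 1582 of all tested genes. For all 7 members, every calcium library was above every control library, which held for 16.0% of tested genes. FOS was called in all 17 alternative fits, while JUND was called in 10. Without control replicate 1 only FOS remained called, and without control replicate 2 only FOS and FOSB did. JUND also lost its call without control replicate 3 and without calcium replicate 1 or 2.

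Treatment with cadmium gave no called member, against 0.150% of tested genes called in either direction. The nearest were FOSB, with a log2 fold change of 2.81 (SE 0.54, limma adjusted p = 0.0661), and FOS, with 2.68 (SE 0.66, limma adjusted p = 0.0934). These were also the 2 members whose cadmium libraries all lay above the control, as did those of 17.7% of tested genes, and the 2 with an unadjusted p under 0.05, which 25.9% of tested genes had. JUN had 1.49 (SE 0.65), FOSL2 1.03 (SE 0.43), JUND 0.82 (SE 0.38) and JUNB 0.41 (SE 0.29), with limma adjusted p from 0.2 to 0.395. With limma-voom on recovered fragments, FOSB was called, as were 482 of all tested genes. Cadmium replicate 1 was the lowest of its group in FOS, FOSB, FOSL2, JUN and JUND. Without it, FOS (3.45), FOSB (3.39) and JUN (2.19) were called, with limma adjusted p of 0.0256, 0.0256 and 0.0429.

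Treatment with GSK4716 gave 0 called members by limma and by limma-voom, and 3 at an unadjusted p under 0.05. Over all tested genes limma called 0%, with 2404 genes (16.4%) at an unadjusted p under 0.05 and 79 called by limma-voom. FOSL2 had a log2 fold change of 1.21 (SE 0.30, limma adjusted p = 0.183), JUN 1.38 (SE 0.39, limma adjusted p = 0.201) and JUND 0.84 (SE 0.20, limma adjusted p = 0.177). These 3 and FOSB (0.49, SE 0.22) had all GSK4716 libraries above the control, as did 10.7% of tested genes. FOS, at 0.20 (SE 0.35), and JUNB, at -0.12 (SE 0.13), overlapped the control.

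Treatment with DES alone resulted in higher FOS, JUN and JUND, 3 of the 7 members, while 16.7% of all tested genes were called higher. FOS rose by 4.21 on the log2 scale (SE 0.51, limma adjusted p = 0.00232), JUN by 3.26 (SE 0.34, limma adjusted p = 0.00140) and JUND by 1.71 (SE 0.29, limma adjusted p = 0.00675). FOSB had 1.43 (SE 0.48, limma adjusted p = 0.0604) and JUNB 0.38 (SE 0.19, limma adjusted p = 0.162). FOSB was called with limma-voom on recovered fragments (adjusted p = 0.0225), as were 4770 of all tested genes, and with all 7 groups in one limma fit (adjusted p = 0.0421). FOSL2 had 0.57 (SE 0.32) and overlapped the control, while the other 6 members did not, as 25.9% of tested genes. The 3 called members remained called when any library was left out, but with no filter on low values JUND lost its call (limma adjusted p = 0.0776).

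**Figure D3:**
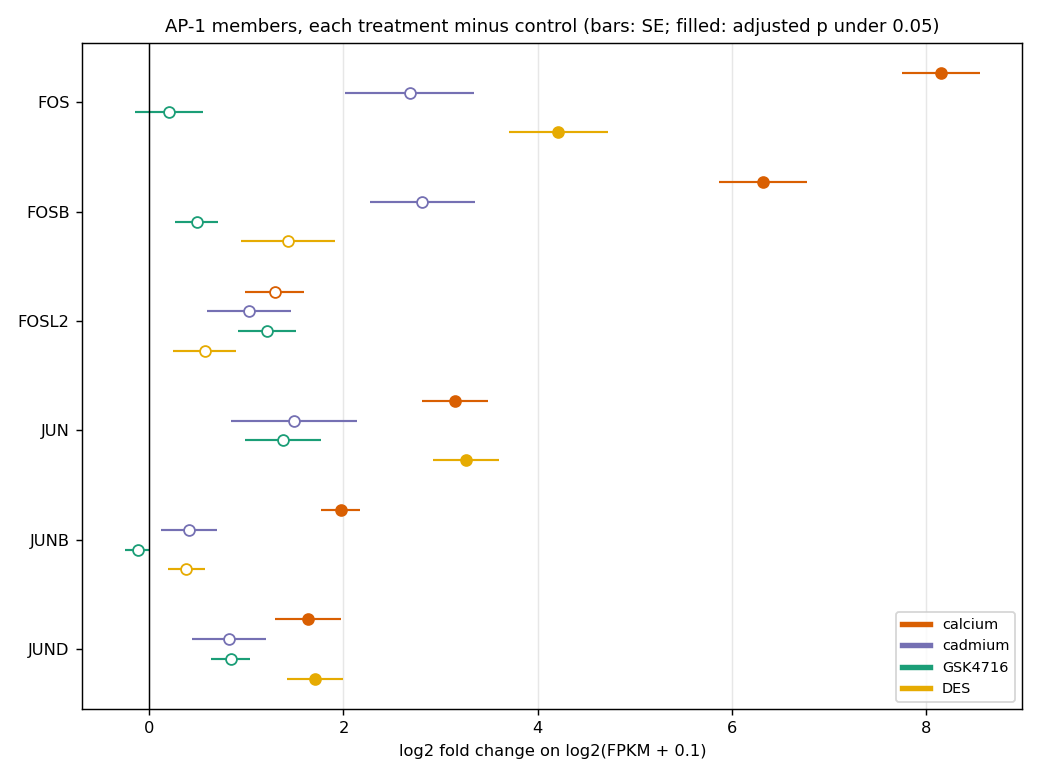
Log2 fold change against the control on the log2(FPKM + 0.1) scale, with bars for the standard error, for 6 members and 4 treatments; FOSL1, with 2 to 6 fragments per control library, is left out. Filled points passed an adjusted p of 0.05: FOS, FOSB, JUN, JUNB and JUND with calcium and FOS, JUN and JUND with DES.

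Calcium and cadmium were also compared directly, each metal being given without DES. Calcium was given without serum and cadmium with some serum left in the medium, so metal and medium cannot be told apart here. FOS was higher with calcium by 5.47 on the log2 scale (SE 0.72, limma adjusted p = 0.0356) and FOSB by 3.52 (SE 0.63, limma adjusted p = 0.0458), where 1.59% of tested genes were called higher. JUNB had 1.56 (SE 0.31, limma adjusted p = 0.0580) and JUN 1.65 (SE 0.56, limma adjusted p = 0.154). FOSL1 had 2.61 (SE 0.89, limma adjusted p = 0.515), FOSL2 0.26 (SE 0.36) and JUND 0.81 (SE 0.44). In all but FOSL2 and JUND, every calcium library was above every cadmium library, as for 15.5% of tested genes. FOS kept its call only without cadmium replicate 1, and FOSB lost its call when any of the 6 libraries was left out.

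The effect of calcium in the presence of DES was read against DES alone. No member was called, against 0.136% of tested genes in either direction. FOS had a log2 fold change of 3.75 (SE 0.55, limma adjusted p = 0.0976) and FOSB 3.28 (SE 0.52, limma adjusted p = 0.116), and for both every DES_calcium library was above every DES library, as for 7.84% of tested genes. JUNB (0.60, SE 0.21), JUND (0.58, SE 0.41), FOSL2 (0.18, SE 0.23) and JUN (-0.05, SE 0.24) overlapped. At an unadjusted p under 0.05 there were 3 members, against 13.2% of tested genes. Limma-voom called 0 members and 0 genes in all, and with all 7 groups in one fit FOS (adjusted p = 0.0150) and FOSB (adjusted p = 0.00589) were called. With the replicate block, which takes equal numbers as pairs, neither FOS nor FOSB was called (limma adjusted p = 0.198 for each).

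The interaction, the calcium effect with DES minus that without, was called and negative for FOS, FOSB, JUN and JUNB, where 2.38% of tested genes were called lower. It was -4.41 for FOS (SE 0.71, limma adjusted p = 0.0109) and -3.20 for JUN (SE 0.43, limma adjusted p = 0.00457). It was -3.04 for FOSB (SE 0.71, limma adjusted p = 0.0387) and -1.37 for JUNB (SE 0.30, limma adjusted p = 0.0335). FOSL2, at -1.11 (SE 0.39, limma adjusted p = 0.145), and JUND, at -1.05 (SE 0.55, limma adjusted p = 0.312), did not pass, nor did FOSL1 (limma adjusted p = 0.258). FOSB lost its call with limma-voom (adjusted p = 0.0778), quantile normalization (0.063) and a pseudocount of 1 (0.0653), and JUNB with all 7 groups in one fit (0.057). With no filter on low values none of the 4 was called. FOS and JUN remained called in all 12 fits without 1 library. FOSB kept its call only without calcium replicate 3, DES replicate 3 or DES_calcium replicate 2, and JUNB only without control replicate 3, calcium replicate 3, DES replicate 1 or DES_calcium replicate 2. The levels behind these values differed by gene. For JUN and FOS the starting level was higher with DES than in the control, and the final levels with calcium overlapped, with a difference of DES_calcium minus calcium of 0.07 for JUN (SE 0.23, limma adjusted p = 0.838) and -0.20 for FOS (SE 0.44, limma adjusted p = 0.743). For JUNB the final level was lower with DES, by -0.99 on the log2 scale (SE 0.23, limma adjusted p = 0.0193), the only member called between DES_calcium and calcium, where 16.5% of tested genes were called lower. JUNB lost this call without calcium replicate 1, calcium replicate 2 or DES_calcium replicate 1. FOSB was at -1.61 in the same comparison (SE 0.53, limma adjusted p = 0.0567). It was called in 8 of 11 alternative settings, but in 0 of 6 fits without 1 library. Limma-voom was among the 8 (adjusted p = 0.0158), and called 5750 of all tested genes. All DES_calcium libraries of FOSB were below calcium. So were those of JUNB and of FOSL1, at 0, 23 and 3 fragments against 48, 131 and 53, and those of 25.1% of tested genes.

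**Figure D4:**
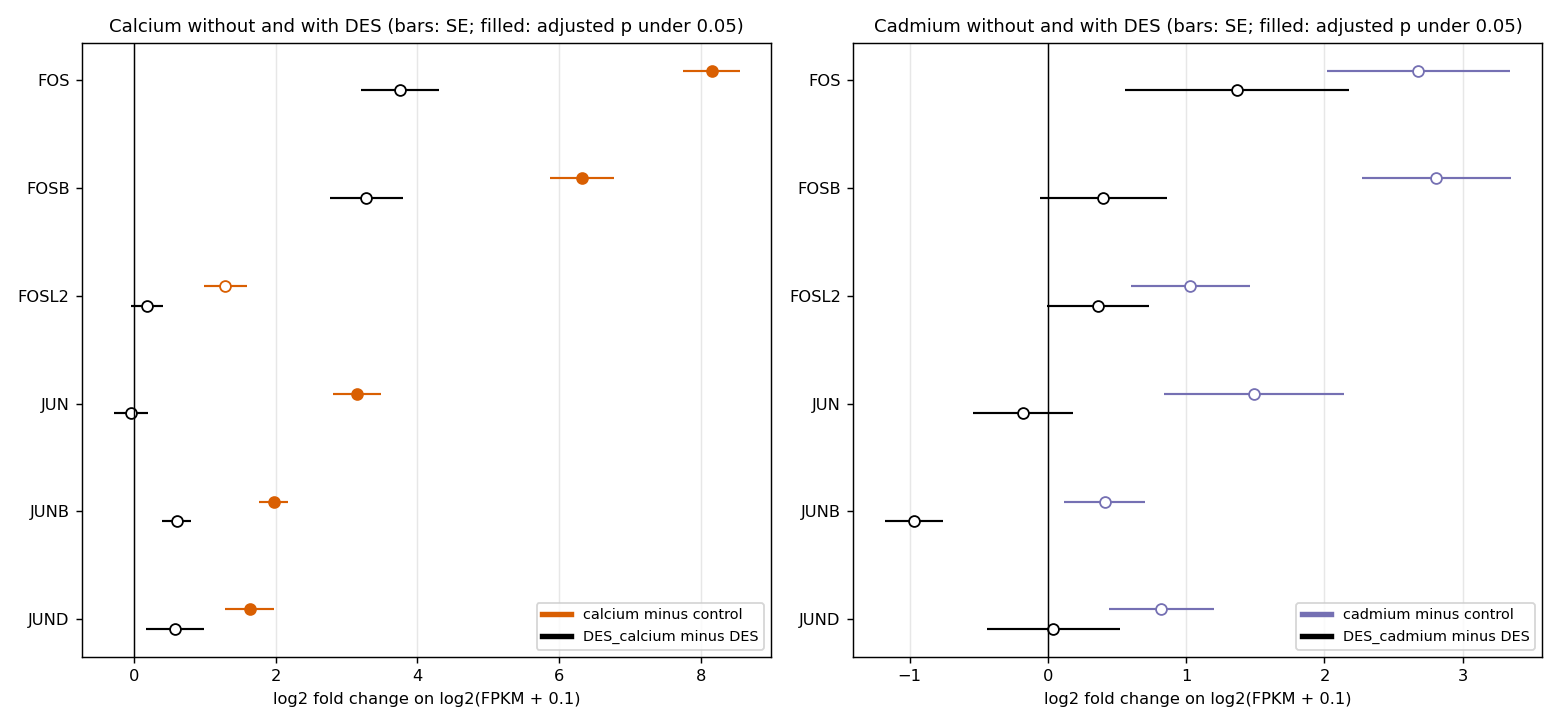
Log2 fold change of each metal without DES (coloured) and with DES against DES alone (black), with bars for the standard error, for 6 members; the left panel shows calcium and the right cadmium, on separate axes. For FOS the calcium value is 8.15 without DES and 3.75 with it, and for JUN 3.15 and -0.05.

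Cadmium in the presence of DES gave no called member against DES alone, with 0.266% of tested genes called in either direction. JUNB had a log2 fold change of -0.97 (SE 0.21, limma adjusted p = 0.178), was the only member with an unadjusted p under 0.05 (10.4% of tested genes), and had all DES_cadmium libraries below DES (10.9%). FOS had 1.37 (SE 0.81, limma adjusted p = 0.625) and the other members overlapped. Limma-voom called 0 members and 0 genes in all. Against cadmium alone no member passed either, where 9.89% of tested genes were called. FOS (2.90, SE 0.89, limma adjusted p = 0.0809) and JUN (1.59, SE 0.64, limma adjusted p = 0.143) had all DES_cadmium libraries above cadmium, as 18.6% of tested genes, and JUNB (-1.0, SE 0.31, limma adjusted p = 0.0824) had all below, as 21.4%. These 3 members had an unadjusted p under 0.05, where 32.6% of tested genes did. Limma-voom called none of them and 1808 of all tested genes. For the interaction of cadmium with DES no member was called, against 1.18% of tested genes. FOSB had -2.40 (SE 0.73, limma adjusted p = 0.117) and JUNB -1.38 (SE 0.37, limma adjusted p = 0.0881), both with an unadjusted p under 0.05, as 18.5% of tested genes. Limma-voom called 0 members and 123 genes in all. Without cadmium replicate 1, FOSB was called (limma adjusted p = 0.0347).

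The make-up of AP-1 transcripts differed between the groups. The 7 members summed to 231 ± 60.4 FPKM in the control, 1110 ± 313 with calcium, 740 ± 130 with DES and 1130 ± 375 in DES_calcium (SD, n = 3). The FOS genes held 5.36% ± 0.742 of this sum in the control, 19.3% ± 5.24 with calcium and 14.4% ± 1.73 in DES_calcium, and the libraries of both calcium groups, at 12.4% to 24.8%, were above all libraries of the other groups. FOS alone went from 0.193% ± 0.0702 in the control to 14% ± 4.48 with calcium. With DES the FOS genes held 3.96% ± 0.312, below every control library, and JUN held 31.5% ± 3.78. JUNB held 33.8% ± 3.75 in the control, 27.7% ± 2.02 with calcium, 13.7% ± 2.36 with DES and 7.78% ± 3.52 in DES_cadmium. These shares were not tested and compare genes per length.

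**Figure D5:**
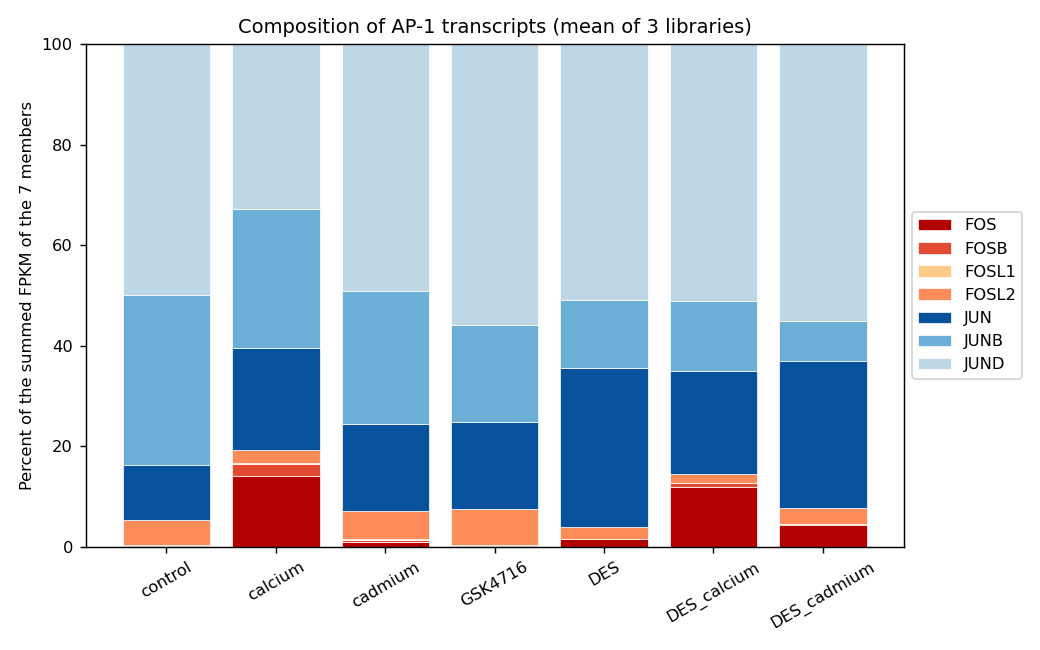
Share of each member in the summed FPKM of the 7 members, in percent, as the mean of 3 libraries per group; FOS genes are in red and orange and JUN genes in blue. FOS reaches 14% with calcium and 11.8% in DES_calcium, and JUN 31.5% with DES.

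Genes that pair with AP-1 proteins, act upstream of them or are known as their targets were read from 3 lists. The lists were chosen with earlier results of these data known, so their counts are a description. Of the 28 targets, 13 were tested. Of these SPRR1B, never called, passed the filter only through its calcium libraries and was left out after its values were seen. With calcium 9 of the other 12 were higher and 0 lower, where 4.60% of all tested genes were called higher. The median log2 fold change of the 12 was 3.05, against -0.01 over all tested genes. They included the growth factor AREG (5.38, SE 0.68), the chemokine CXCL8 (5.33, SE 1.00), the collagenase MMP13 (4.80, SE 0.50) and the MAP kinase phosphatase DUSP1 (3.94, SE 0.53), with limma adjusted p from 0.0103 to 0.0346. With DES, 4 of the 12 targets were higher and 1 lower (median 1.07, against 0.05), where 16.7% of all tested genes were called higher and 12.9% lower. DUSP1 (3.39, SE 0.51), AREG (2.73, SE 0.51), HBEGF (2.47, SE 0.50) and MMP13 (2.09, SE 0.59) rose, and the integrin chain ITGA2 fell by 1.89 (SE 0.19), with limma adjusted p from 0.00133 to 0.0355. In DES_calcium against calcium, 7 of the 12 targets were lower and 0 higher (median -0.67, against -0.01), beside 16.5% of all tested genes called lower, among them ITGA2 (-3.44), CXCL8 (-2.85), AREG (-2.84) and MMP13 (-2.17). The interaction of calcium with DES was negative and called for 5 targets and positive for 0 (median -2.05, against -0.02), beside 2.38% of all tested genes called lower, with AREG at -5.56 (SE 0.89) and MMP13 at -4.26 (SE 0.80). AREG was at 34.4 ± 30.1 FPKM with calcium and 3.54 ± 0.727 in DES_calcium (SD, n = 3). Between calcium and cadmium 3 targets were called higher with calcium, DUSP1 and TIMP1 among them (median 2.39, against -0.01), beside 1.59% of all tested genes. In DES_cadmium against cadmium 0 were higher and 1 lower, ITGA2 at -1.72 (SE 0.32, limma adjusted p = 0.0346), with a median of -0.06 against -0.08, and 5.13% of all tested genes were called lower. With cadmium (median 1.06, against 0.04), with GSK4716 (0.50, against 0.00), in DES_calcium against DES (0.54, against 0.00) and in DES_cadmium against DES (0.15, against -0.04), 0 targets were called.

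Of 17 dimer partners, 14 were tested. With calcium, 5 were higher and 0 lower (median 0.70, against -0.01 over all tested genes), where 4.60% of all tested genes were called higher. They were the stress factor ATF3 (5.52, SE 0.62), MAFF (3.98, SE 0.47), BATF (1.42, SE 0.25), MAFK (1.29, SE 0.17) and MAFG (0.78, SE 0.13), with limma adjusted p from 0.0123 to 0.0294. With DES, 7 were higher and 0 lower (median 0.44, against 0.05), beside 16.7% of all tested genes called higher, led by ATF3 (4.39, SE 0.29), MAFF (3.83, SE 0.24), the CHOP gene DDIT3 (2.30, SE 0.40) and BATF (1.73, SE 0.27). Their interaction of calcium with DES was negative and called for 5 and positive for 0 (median -0.96, against -0.02), beside 2.38% of all tested genes called lower, with ATF3 at -5.48 (SE 0.70). ATF3 was at 41.1 ± 9.31 FPKM with DES and 42.6 ± 12.7 in DES_calcium (SD, n = 3). In DES_calcium against calcium 3 of the 14 partners were higher and 3 lower, where 18.5% of all tested genes were called higher and 16.5% lower. In DES_cadmium against cadmium 0 were higher and 2 lower, where 5.13% were called lower. With cadmium, with GSK4716, between the metals and with either metal on DES, 0 were called.

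Of 26 genes upstream of AP-1, kinases, SRF with its cofactors, the ELK factors, CREB1 and CREM, the calcineurin subunit gene PPP3CA and the ubiquitin ligase subunit gene FBXW7, 25 were tested. With calcium 1 was higher, the SRF cofactor MRTFA (0.91, SE 0.18), and 1 lower, the kinase RPS6KA5 (-1.40, SE 0.28), with a median of -0.05 against -0.01. Of all tested genes 4.60% were called higher and 2.53% lower, so these counts were near the background. With DES 1 was higher and 7 of the 25 lower (median -0.27, against 0.05), where 16.7% of all tested genes were called higher and 12.9% lower. Among the lower were MRTFB (-1.86, SE 0.25), RPS6KA3 (-1.69, SE 0.35), MAP2K4 (-1.53, SE 0.27) and ELK3 (-1.12, SE 0.35). In DES_calcium against calcium 3 of the 25 were higher and 5 lower, beside the 18.5% and 16.5% of all tested genes, with MRTFA at -1.58 (SE 0.18), MAP2K4 at -1.54 (SE 0.29) and SRF at -0.88 (SE 0.17) among the lower and RPS6KA5 at 1.22 (SE 0.37) and FBXW7 at 0.99 (SE 0.25) among the higher. The interaction of calcium with DES was called for SRF alone, at -1.37 (SE 0.32, limma adjusted p = 0.0401), 1 of 25 beside 2.38% of all tested genes called lower. In DES_cadmium against cadmium 0 were higher and 1 lower, RPS6KA3, beside 5.13% of all tested genes. With cadmium, with GSK4716, between the metals and with either metal on DES, 0 were called. The interaction of cadmium with DES was called for 0 genes of any of the 3 lists. Transcript levels of these genes do not show the activity of the kinases, which is set after translation.

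The genes whose pattern was most like that of each member were found by Pearson's correlation of log2(FPKM + 0.1) over the 21 libraries among 10109 protein-coding genes averaging 1 FPKM or more. The libraries share groups and depth, so these values are a description. For FOS they were NR4A1 (0.948), an immediate early nuclear receptor, GEM (0.942), SAT1 (0.934), MAFF (0.926) and MYL12B (0.922). For FOSB they included NR4A3 (0.910) and NR4A1 (0.899), and for FOSL1 they were MISP (0.904), PHLDA2 (0.877) and ZFP36 (0.850). FOSL2 was most like KRT80 (0.826), GDF15 (0.817) and TRIM16 (0.815), the weakest likeness of the 7. The genes most like JUN included DUSP1 (0.935) and NFIL3 (0.925), and JUNB was most like TRIB1 (0.897), CDR2 (0.885) and FOSB itself (0.854). JUND was most like MAFF (0.917), TIPARP (0.909) and AL135905.2 (0.897). Among the members, JUN and JUND (0.890), FOS and FOSB (0.872) and FOSB and JUNB (0.854) were closest, and FOSL2 and JUNB (0.293) least alike.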

How the data were processed

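Poly-A RNA of 21 MDA-MB-453 libraries, 3 in each of 7 groups, was sequenced. The authors deposited FPKM per gene and library. The submitters' processing notes name HISAT2 2.0.5, featureCounts 1.5.0-p3 and GRCh38.p14, and the paper's methods name DESeq2 and edgeR, which were not run here. The library protocol names both a directional and a non-directional procedure, so genes overlapping others are uncertain. FPKM multiplied by gene length gave whole fragments, within 0.1, for 100% of values, and 14435925 to 28424805 fragments per library set the precision. No pair of libraries was a copy: at most 17.9% of genes had equal fragments.

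Groups were compared by limma 3.58.1 (lmFit and trended eBayes, R 4.3.3). The values were log2(FPKM + 0.1) of genes averaging an FPKM of 0.5 or more, with only the compared groups in the fit, in 9 pairwise comparisons and 2 interactions. Genes under the filter were read from the fit without it. Steps were tested on simulated data. Tables were made with pandas 2.3.3 and numpy 2.4.6 under Python 3.11.15 and figures with matplotlib 3.10.9, and motifs were matched to GRCh38.

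All 7 members were read in every comparison, and fold changes of FOSL1, near the limit of detection, are given in 2 of them. From the 3 companion lists at most 5 called genes of largest fold change are named per list and comparison, with the 5 genes most like FOS and 3 most like each other member, except a few genes that are not reported here. Members, lists and tests were chosen with earlier results of these data known.

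Equal replicate numbers were checked for pairing by the correlation of deviations from group means. It was 0.132, 0.103 and 0.280 for DES_calcium with DES and 0.472, 0.121 and 0.313 for DES_cadmium with DES, all over 0.1, so the numbers were taken to pair these samples. The printed values are from the fit without the block, and the block was an alternative. Every other comparison had a pair under 0.1. Alternatives were an absolute log2 fold change of at least 1, a pseudocount of 1, no filter, a filter at an average FPKM of 2, scaling by median ratios, by quantiles or by total fragments on genes, limma-voom on recovered fragments, a replicate block, arrayWeights, all 7 groups in one fit and each library left out. A filter on an average of 10 recovered fragments or more was added after seeing the data.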

Additional observations from a re-analysis of the deposited data

Results flagged for a closer look

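The effect of calcium differed with and without DES for 4 members by the test of the difference itself (the interaction term of the 12 libraries of control, calcium, DES and DES_calcium). The interaction was -4.41 for FOS, -3.04 for FOSB, -3.20 for JUN and -1.37 for JUNB on the log2 scale.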

How the results depend on the processing

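Counts of called members stayed within 1.5 times of the reported count in 98 cases and moved in 34, and with 1 library left out in 58 and 20; the cause was not tested. For calcium minus control the count of 5 was 1 with no filter on low values, and 1 to 5 without 1 library. For cadmium minus control the count of 0 was 2 with all 7 groups in one fit, 6 with arrayWeights, 1 with limma-voom, 1 with a mean of at least 10 recovered fragments, and 0 to 3 without 1 library. With arrayWeights it was 3 for GSK4716 minus control and 6 for DES minus control (3 in the report, 3 to 4 without 1 library). For DES_calcium minus DES it was 2 with all 7 groups and 3 with arrayWeights. For DES_cadmium minus DES it was 1 with quantile normalization, 1 with all 7 groups and 2 with arrayWeights. For DES_calcium minus calcium the count of 1 was 0 at an absolute log2 fold change of at least 1 (JUNB is at -0.99) and 0 with no filter. It was 2 with a pseudocount of 1, a mean FPKM of at least 2, arrayWeights or limma-voom, and 3 with quantile normalization, total fragments, all 7 groups, the replicate block or a mean of at least 10 fragments, a filter that FOSL1 passes only through its calcium libraries. Without 1 library it was 0 to 1. For DES_cadmium minus cadmium it was 1 with quantile normalization, 1 with total fragments, 3 with all 7 groups and 4 with arrayWeights. For calcium minus cadmium the count of 2 was 0 with no filter, 1 with total fragments, 4 with all 7 groups, 1 with the replicate block, and 0 to 1 without 1 library. For the interaction with calcium the count of 4 was 0 with no filter and 2 to 4 without 1 library, and for that with cadmium 1 with all 7 groups, 5 with arrayWeights and 0 to 1 without 1 library.

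The replicate block gave 0 called members for both paired comparisons, DES_calcium minus DES and DES_cadmium minus DES, as without it (FOS in DES_calcium minus DES had an adjusted p of 0.198 with the block). With the block 4 members were called for calcium minus control and 3 for DES minus control, where equal numbers are only numbers.

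Members that were not called changed sign under some settings. With arrayWeights FOSL2 was at -0.08 and JUN at 0.02 in DES_calcium minus DES, FOSL2 at -0.03 in calcium minus cadmium, JUNB at 0.04 in GSK4716 minus control and JUND at -0.16 in DES_cadmium minus DES. With quantile normalization JUN was at -0.54 and JUND at -0.03 in DES_calcium minus calcium, JUNB at -0.08 in DES minus control, and JUND at -0.34 in DES_cadmium minus DES and 0.00 in DES_cadmium minus cadmium. With total fragments JUN was at -0.13 in DES_calcium minus calcium and JUND at -0.18 in DES_cadmium minus DES. Without 1 library FOS ranged from -0.13 to 0.46 in GSK4716 minus control and from -0.49 to 0.26 in DES_calcium minus calcium. FOSL2 ranged from -0.50 to 0.27 in DES_cadmium minus cadmium and from -0.15 to 0.49 in calcium minus cadmium. JUN ranged from -0.23 to 0.17 in DES_calcium minus DES, from -0.41 to 0.18 in DES_cadmium minus DES and from -0.11 to 0.29 in DES_calcium minus calcium, and JUND from -0.34 to 0.48 in DES_cadmium minus DES. Total fragments moved the median of all genes from -0.076 to -0.385 in DES_cadmium minus cadmium, and by over 0.1 in 5 other comparisons. All called members kept their direction under every alternative run. FOSL1, with 17.3 fragments per library on average, is limited by depth.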
